A study of Mus musculus with 6 samples.

Results

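The complement system was followed in the injured pancreas through 9 of its genes, C1qa, C1qb, C1qc, C1ra, C1s1, C4b, C2, C3 and Cfb. They were chosen by name, as the genes for the proteins that start the cascade and cleave or carry C3, and their Ensembl identifiers were looked up in the expression tables, which list 22556 genes. All 9 were found. Levels are in TPM, a length-corrected share of all transcripts, and all 9 reached the mean of 1 TPM that was the minimum for a test. RNA had been sequenced from the whole pancreas of wild type C57BL/6 mice, labelled as 8 weeks old. There were 3 groups of 2 mice. The saline mice received saline only, the AP mice received cerulein, which causes acute pancreatitis (AP), and the last group received polyI:C, a synthetic double-stranded RNA, and then cerulein. The last group is called polyI:C/AP mice here. No mice given polyI:C without cerulein were analysed here, so that all mice that received polyI:C also received cerulein. The comparison of AP with saline mice asks what cerulein changed, and the comparison of polyI:C/AP with AP mice asks what the pretreatment changed.

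Complement is a cascade of proteases and binding proteins that marks cells and debris and draws in leukocytes. In the classical pathway the recognition molecule C1q, built from the A, B and C chains that C1qa, C1qb and C1qc encode, carries the proteases C1r and C1s, and C1s cleaves C4 and C2 to make a C3 convertase. Factor B, from Cfb, does the work of C2 in the alternative pathway, and both routes meet at C3. The liver makes most of the C3, C4 and factor B of plasma, whereas C1q is made mainly by macrophages and dendritic cells, and many tissues make some of these components themselves.

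The 3 C1q chains rose in AP mice, by 3.06 to 3.77-fold, and were lower after polyI:C without passing the test. C4b, one of the substrates of C1s, showed no detectable change with cerulein and rose 4.19-fold after polyI:C relative to AP mice. C1ra was 2.43-fold higher in polyI:C/AP than in saline mice, and its neighbour C1s1 showed no change past the test in any of them. C3 had the highest TPM of the 9 genes in every group, and C2 and Cfb were near the limit of detection.

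The files hold TPM without read counts, and the spacing of low TPM values gave estimates of 3296931 to 10826338 reads on genes per library, with the 2 saline libraries the shallowest. PolyI:C/AP mouse 2 (mice are numbered as in the labels) stood apart from the rest. In that mouse 193 genes lay over 4-fold above every other sample, compared with 9 to 35 in the others. The 10 genes of a list of intestinal epithelial genes, written after this mouse had been seen to stand apart, summed to 3900 TPM there and to between 4.67 and 8.19 TPM in the other mice. Calls on the 9 genes that rest on this mouse are given with and without it below. Calls on marker genes, and many of those on other complement genes, are given only with it. As a check of the tissue, acinar genes were present, but 7 of the 12 acinar genes looked for are not listed in the tables. Of the 5 tested, Amy2a5, Bhlha15 and Rbpjl fell in AP mice. Ptf1a and Nr5a2 differed from saline mice by 0.20 and 0.16 on the log2 scale and did not pass the test. Across all tested genes the median difference between AP and saline mice was 0.45 on the log2 scale and that between polyI:C/AP and saline mice 0.48, against 0.04 between the cerulein groups. Scaling the samples by median-of-ratios factors brought these medians to 0.05, 0.05 and 0.02. Some changes against saline mice are therefore also given under that scaling, where stated. The others, and all counts over marker lists, are given only without it. In AP mice that scaling turned the 3053 genes up and 677 down among all tested genes into 1564 up and 1226 down.

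The positions of the 9 genes fall into 4 places of the mouse genome (GENCODE M21, GRCm38). C1qa (chr4:136895917-136898803), C1qc (chr4:136889804-136893065) and C1qb (chr4:136880129-136886187) lie next to each other on the minus strand. C1ra (chr6:124512405-124523443, plus strand) and C1s1 (chr6:124530345-124542359, minus strand) are neighbours on chromosome 6. Within the major histocompatibility complex, C4b (chr17:34728380-34743882), Cfb (chr17:34856374-34862518) and C2 (chr17:34862604-34898265) lie on the minus strand, and C3 (chr17:57203970-57228136) is far from them on the same chromosome and strand.

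Promoter sequence was looked up in RefSeq (GRCm38.p6) and found for 5 of the 9 genes, C1qb, C1qc, C1ra, C1s1 and C3, and not for C1qa, C2, C4b and Cfb. Shown are 2 C1q chains, which moved together, and C3, which had the highest level, each as the bases before the first annotated exon, 5′ to 3′ on the minus strand. For C1qb these are chr4:136886201-136886450, for C1qc chr4:136893066-136893164 and for C3 chr17:57228137-57228386. Capitals mark matches to the motifs searched.
C1qb: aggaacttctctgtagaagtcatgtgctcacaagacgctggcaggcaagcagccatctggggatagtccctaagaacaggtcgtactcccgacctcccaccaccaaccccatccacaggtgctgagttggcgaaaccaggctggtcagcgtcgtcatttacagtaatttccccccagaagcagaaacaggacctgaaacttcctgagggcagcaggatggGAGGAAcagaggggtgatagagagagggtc
C1qc: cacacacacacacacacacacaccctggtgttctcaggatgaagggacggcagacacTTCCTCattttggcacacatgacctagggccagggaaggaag
C3: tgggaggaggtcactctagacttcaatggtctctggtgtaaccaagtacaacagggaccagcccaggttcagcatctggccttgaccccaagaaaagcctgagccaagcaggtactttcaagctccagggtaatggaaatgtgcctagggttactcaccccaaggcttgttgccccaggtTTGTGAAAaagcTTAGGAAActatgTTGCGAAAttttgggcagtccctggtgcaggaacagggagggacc
The motifs were searched on both strands in windows from 250 bases before to 50 after the RefSeq start. They were the interferon response element core GAAANNGAA, the STAT element TTCNNNGAA, the NF-kB site as GGNNTTTCC or GGNNTTCCC, the C/EBP site TTNNGNAA and the ETS core GAGGAA. Of 32817 RefSeq promoters of the same length, 8.55% held the interferon core, 8.29% the STAT element, 5.83% and 5.82% the NF-kB forms, 40.7% the C/EBP site and 28.3% the ETS core. The ETS core was present in C1qb, C1qc (as TTCCTC, its reverse complement) and C1ra, where it lay 44 bases after the RefSeq start. The C/EBP site was found in 4 of the 5 promoters, C1qc, C1ra, C1s1 and C3. In C1qc it lay 81 bases before the RefSeq start but after the GENCODE start, and so outside the bases shown. All matches in C1ra likewise lay after its GENCODE start. C3 held it at 70, 58 and 45 bases before its start, the last of them on both strands and so overlapping itself. In C1ra the STAT element occurred once, as TTCCCTGAA, 32 bases after the RefSeq start and inside the first exon of the GENCODE model. These matches are letters in a window and were not tested for any factor.

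Of the 9 genes, 3 rose in AP against saline mice (C1qa, C1qb and C1qc), beside 18.2% of the 16814 genes tested, and none fell, beside 4.03%. In polyI:C/AP against AP mice 1 of the 9 rose (C4b), beside 0.44% of tested genes, and none fell, beside 0.404%. Against saline mice, 3 of the 9 rose in polyI:C/AP mice (C1qa, C1ra and C4b), beside 16.9%, and none fell, beside 2.97%. At an unadjusted p under 0.05 and 2-fold the counts of rises were 3, 3 and 3, and those of falls stayed at 0. A gene was counted when limma, a linear model on log2(TPM + 0.5) over all 6 mice, gave a p of at most 0.05 after Benjamini-Hochberg adjustment, together with a change of 2-fold or more. The median difference of the 9 genes was 0.58, 0.21 and 1.11 in the order of these comparisons, beside medians over all tested genes of 0.45, 0.04 and 0.48. The comparisons share mice, so that their counts are not independent of one another. With 2 mice in each group an exact permutation test of 1 gene cannot give a p below 0.333, so that the p-values rest on the spread shared across genes, and they measure only the spread between these samples.

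**Figure D1:**
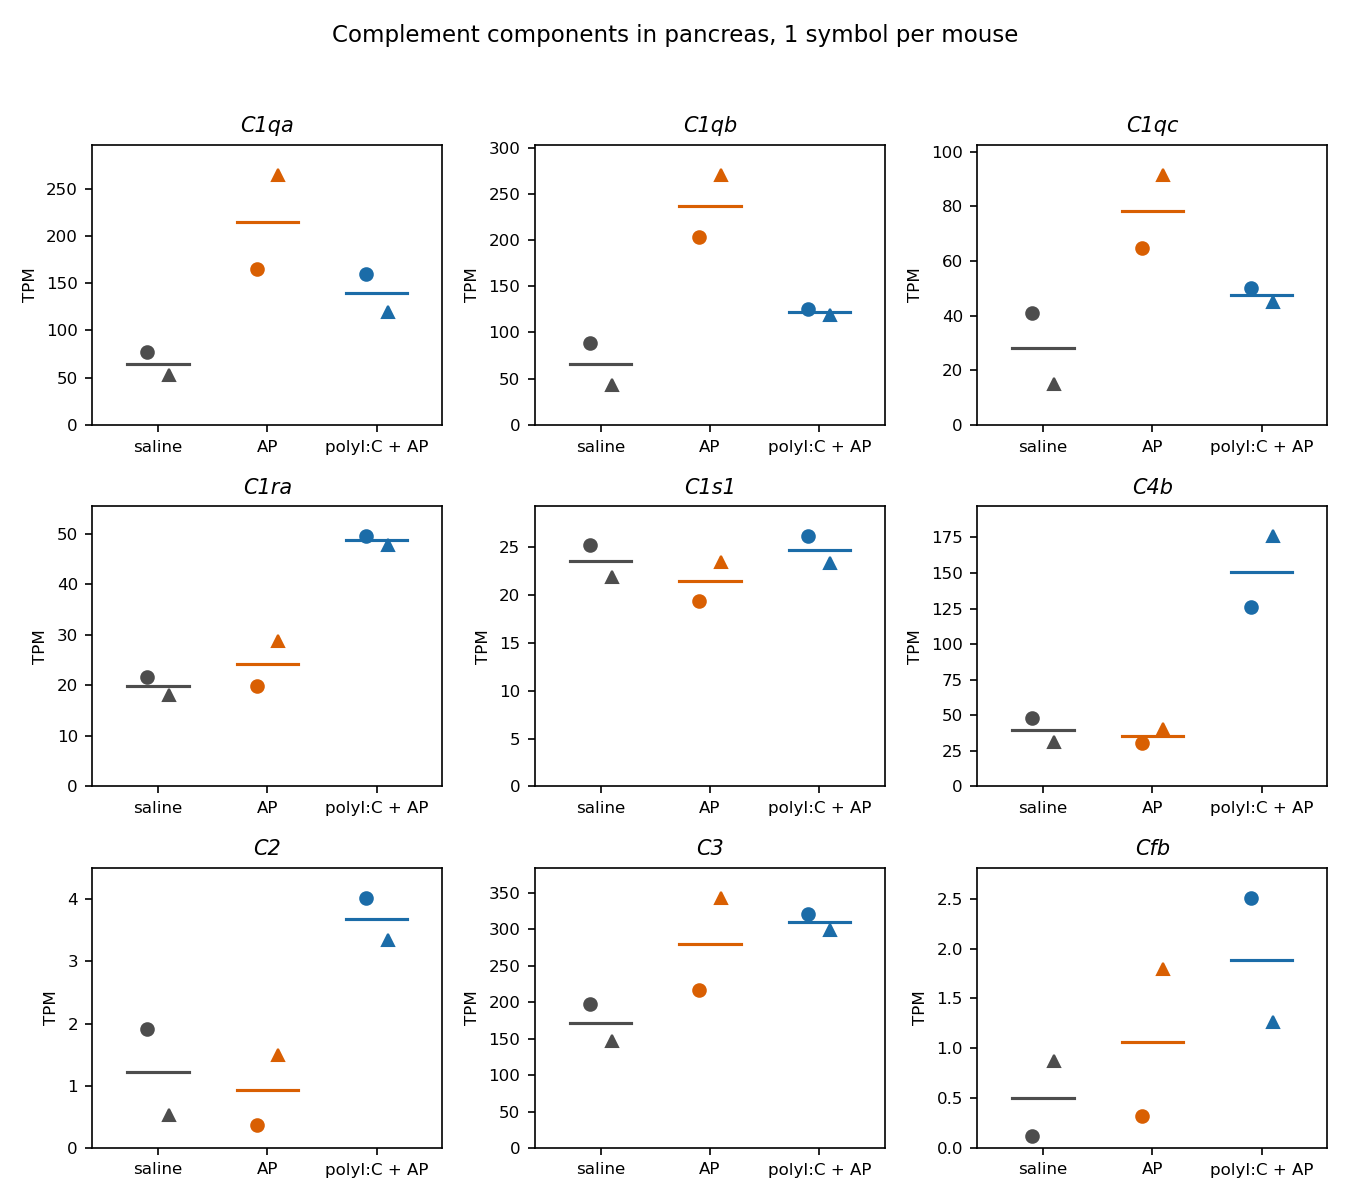
TPM (y axis, linear, from 0) of the 9 complement genes in saline, AP and polyI:C/AP (polyI:C + AP) mice. Circles are replicate 1 and triangles replicate 2 of each group, and lines are the means of 2 mice; the C1q chains are highest in both AP mice, and C4b, C1ra and C2 in both polyI:C/AP mice.

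C1qa encodes the A chain of C1q. Its level was 77.1 and 52.6 TPM in saline, 166 and 265 TPM in AP and 160 and 119 TPM in polyI:C/AP mice. Both AP mice lay above all other mice, and both polyI:C/AP mice lay above both saline mice. The rise in AP mice was 3.27-fold on the log2(TPM + 0.5) scale (log2 1.71, SE 0.29, adjusted p = 0.00376, limma). Relative to AP mice, the difference after polyI:C was -0.60 on the log2 scale (95% confidence interval -1.28 to 0.09, adjusted p = 0.427, limma), which did not pass the test. Against saline mice, C1qa in the polyI:C/AP mice was 2.16-fold higher (adjusted p = 0.0217, limma). That last rise rested on the scaling, since it was 0.66 with an adjusted p of 0.125 under median-of-ratios scaling, and it did not pass without polyI:C/AP mouse 1 (0.90), without mouse 2 (1.32) or without saline mouse 2 (0.84).

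The B chain gene C1qb reached 88.1 and 43.4 TPM with saline, 203 and 271 TPM in AP and 125 and 119 TPM in polyI:C/AP mice. The 3 groups did not overlap. It rose 3.77-fold in AP mice (log2 1.91, SE 0.32, adjusted p = 0.00371, limma). The difference between polyI:C/AP and AP mice was -0.94 (interval -1.70 to -0.18, adjusted p = 0.259, limma), and that between polyI:C/AP and saline mice was 0.97 with an adjusted p of 0.0501, just outside the threshold.

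For C1qc, the C chain, the values were 41.1 and 14.9 TPM in saline, 64.7 and 91.6 TPM in AP and 50.2 and 45.2 TPM in polyI:C/AP mice. The saline mice differed most from each other, and the groups again did not overlap. The rise in AP mice was 3.06-fold (log2 1.61, SE 0.44, adjusted p = 0.0249, limma). It was the least firm of the 3 chains: the adjusted p was 0.0768 under median-of-ratios scaling and 0.0721 with only the saline and AP mice in the fit. After polyI:C the difference was -0.69 from AP (adjusted p = 0.566, limma) and 0.93 from saline mice (adjusted p = 0.14, limma).

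The 3 chains, which are assembled in equal numbers in C1q, kept a similar balance of transcripts in all mice. C1qa was present at 0.816 to 1.28 times the TPM of C1qb, and C1qc at 0.319 to 0.467 times. Under median-of-ratios scaling the AP rises were 1.28 for C1qa and 1.49 for C1qb, both past the test, and 1.19 for C1qc. The calls on all 3 chains depended on AP mouse 2, in which they were highest. Without it C1qa was 1.37 higher (adjusted p = 0.0507, limma), C1qb 1.71 (adjusted p = 0.0646, limma) and C1qc 1.36 (adjusted p = 0.195, limma), and none of the 9 genes passed. C1qc rested on other mice as well: without saline mouse 2 it was 0.90 and short of 2-fold, and it did not pass without AP mouse 1 (adjusted p = 0.114, limma), polyI:C/AP mouse 1 (0.106) or polyI:C/AP mouse 2 (0.0721). Each AP mouse taken alone still lay above both saline mice for all 3 chains.

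Genes of macrophages, a known source of C1q, moved with the chains in AP mice. Of 15 macrophage genes tested, 9 rose and none fell in AP mice, beside 18.2% and 4.03% of all tested genes. Their median difference was 1.70, and their summed level went from 605 and 419 TPM in saline mice to 2277 and 2553 TPM in AP mice. After polyI:C the sum was 334 and 242 TPM, below both saline mice, but without Lyz2 the other 14 genes summed to 161 and 111 TPM in saline and 131 and 123 TPM in polyI:C/AP mice, which overlap. Relative to AP mice 7 of the 15 fell after polyI:C, beside 0.404% of all tested genes, with a median of -1.49 over the list. Against saline mice 2 rose (Cd68 and Fcgr1), beside 16.9%, and 3 fell (Csf1r, Cx3cr1 and Lyz2), beside 2.97%. In bulk tissue, fewer cells of a type and less RNA per cell cannot be told apart. Lyz2, the lysozyme of myeloid cells and the largest part of that sum, fell by 3.68 on the log2 scale (adjusted p = 0.00441, limma) and Mrc1, the mannose receptor, by 2.68 (adjusted p = 0.00371, limma). Adgre1, which encodes F4/80, was -1.82 (adjusted p = 0.122, limma) and Cd68 -1.27 (adjusted p = 0.0595, limma), neither past the test.

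The C1q chains did not track these genes in a fixed ratio. The sum of the 3 chains was 206 and 111 TPM in saline, 433 and 627 TPM in AP and 335 and 284 TPM in polyI:C/AP mice. Divided by Mrc1, it was 6.79 and 5.27 in saline, 5.27 and 7.41 in AP and 24.2 and 24.8 in polyI:C/AP mice. Both polyI:C/AP mice lay above the other 4 mice, and the same was true for Adgre1 (18.7 and 13.2, with 6.43 to 9.90 elsewhere) and for Lyz2 (1.65 and 2.38, with 0.229 to 0.464 elsewhere). The ratio to Cd68 was different: it was 31.1 and 21.8 in saline, 8.11 and 12.6 in AP and 14.4 and 14.7 in polyI:C/AP mice. These ratios were chosen after the values had been seen and carry no test, and the part of macrophage number in the C1q levels was not tested.

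**Figure D2:**
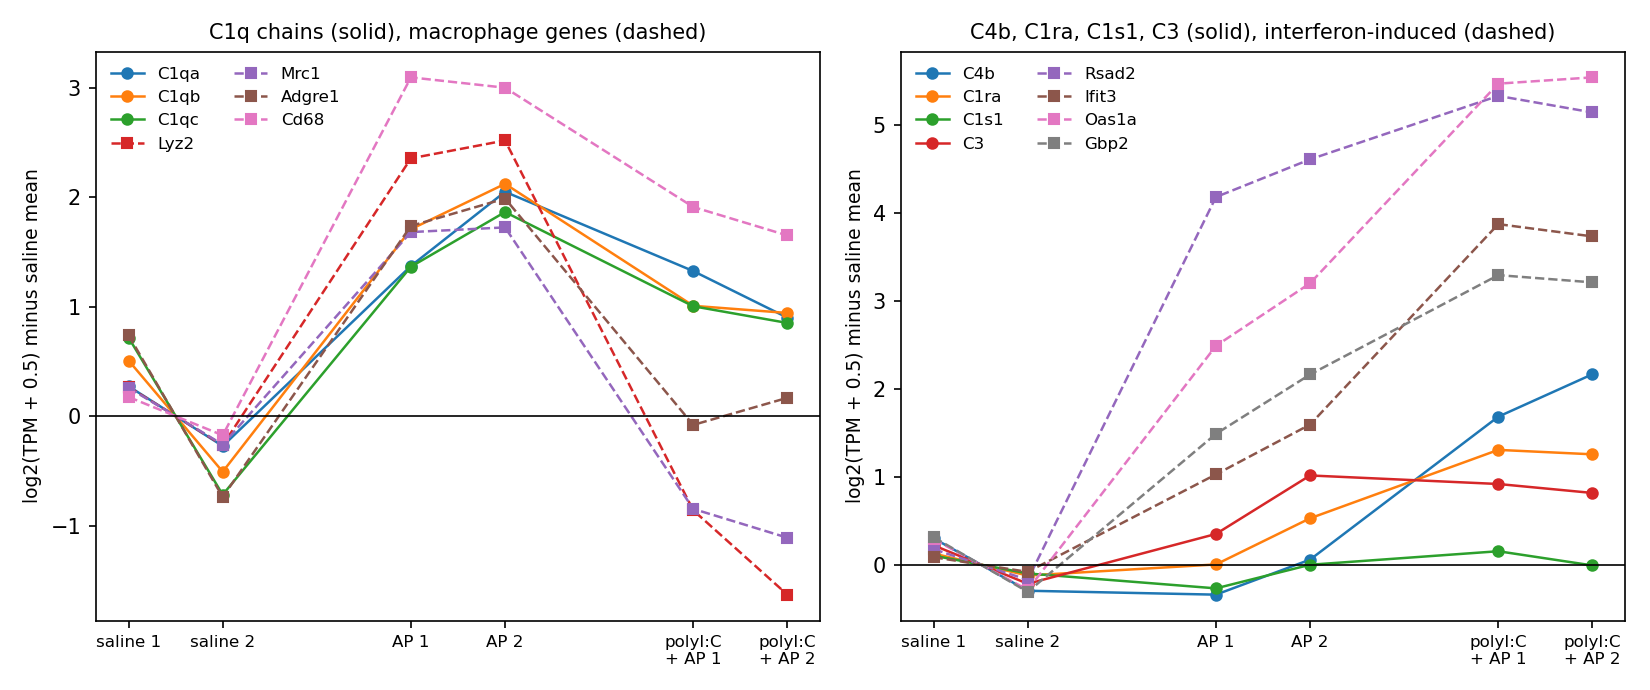
Difference of log2(TPM + 0.5) from the saline mean (y axis) in each of the 6 mice (x axis), for the C1q chains beside the 4 macrophage genes of highest mean TPM (left) and for C4b, C1ra, C1s1 and C3 beside the 4 interferon-induced genes of highest mean TPM (right). Lines join values of 1 gene and carry no order of mice; in polyI:C/AP mice the C1q chains lie 0.85 to 1.32 above the saline mean while Mrc1 and Lyz2 lie below it, Adgre1 lies near it and Cd68 lies above the chains, and C4b and C1ra are highest in the mice in which the interferon-induced genes are highest.

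C1ra and C1s1 encode the proteases C1r and C1s, which sit together on C1q. C1ra was found at 21.6 and 18.1 TPM in saline, 19.8 and 28.7 TPM in AP and 49.5 and 47.8 TPM in polyI:C/AP mice. The saline and AP mice overlapped, and both polyI:C/AP mice lay above all 4 of them. The difference of AP from saline mice was 0.26 (interval -0.22 to 0.75, adjusted p = 0.348, limma) and turned to -0.16 under median-of-ratios scaling. Relative to AP mice, C1ra was 2.02-fold higher after polyI:C (log2 1.02, SE 0.20), but with an adjusted p of 0.0764 it did not pass. It passed with voom weights on the estimated reads (adjusted p = 0.0231, limma). Against saline mice it rose 2.43-fold (log2 1.28, SE 0.20, adjusted p = 0.00318, limma), and under median-of-ratios scaling the difference was 0.83, still with an adjusted p of 0.0209 but short of 2-fold. Without polyI:C/AP mouse 1 it was 1.25 and no longer passed (adjusted p = 0.0557, limma), and without mouse 2 it was 1.30 and passed.

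The level of C1s1 was 25.2 and 21.9 TPM in saline, 19.4 and 23.4 TPM in AP and 26.1 and 23.3 TPM in polyI:C/AP mice. All 3 groups overlapped. The differences were -0.14 (interval -0.54 to 0.27), 0.21 (interval -0.20 to 0.61) and 0.07 (interval -0.33 to 0.47), so that a 2-fold change lay outside each interval. Under median-of-ratios and trimmed-mean scaling the AP difference was -0.56 and -0.53, with adjusted p of 0.0365 and 0.0451 but short of 2-fold, and that of polyI:C/AP from saline mice was -0.38 and -0.35, not past the test. The ratio of C1ra to C1s1 was 0.856 and 0.827 in saline, 1.02 and 1.22 in AP and 1.89 and 2.05 in polyI:C/AP mice. Of the 100-base stretches of C1ra transcripts, 35.9% also occur in another gene, mainly its near-identical copy C1rb, which is not listed in the tables, and 18.4% of the exon bases of C1s1 lie opposite the antisense gene Gm16567. C1rl, a related protease gene and the only listed one of 4 partners looked for, was at 76.9 and 61.3 TPM in saline and 33.6 to 46.0 TPM in the other mice, -0.80 in AP against saline mice (adjusted p = 0.0143, limma) and short of 2-fold. How reads of such stretches were assigned is not given in the sources used here.

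C4b encodes C4, which C1s cleaves and whose larger fragment binds to the target surface. Its level was 47.9 and 31.5 TPM in saline, 30.6 and 40.4 TPM in AP and 126 and 176 TPM in polyI:C/AP mice. Saline and AP mice overlapped, and the lower polyI:C/AP mouse was more than 2-fold above every one of them. The AP difference was -0.14 (interval -0.75 to 0.46, adjusted p = 0.695, limma). After polyI:C, C4b rose 4.19-fold relative to AP mice (log2 2.07, SE 0.25, adjusted p = 0.0223, limma) and 3.79-fold relative to saline mice (log2 1.92, SE 0.25, adjusted p = 0.00154, limma). In rank among the 9 genes it went from the fifth in AP to the second in polyI:C/AP mice.

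The rise over saline mice held under all alternatives run, with 1.47 under median-of-ratios scaling and 1.68 without the polyI:C/AP mouse that holds intestinal genes. That over AP mice kept its size, between 1.82 and 2.31, when single mice were left out, but it did not pass without AP mouse 1 (1.87), AP mouse 2 (2.26), polyI:C/AP mouse 1 (2.31) or polyI:C/AP mouse 2 (1.82). In 3 of these 4 fits no gene of any kind passed. Part of C4b, 15.2% of its 100-base stretches, is shared with C4a, which is not listed.

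C2, the partner of C4 in the C3 convertase, was listed at 1.91 and 0.523 TPM in saline, 0.363 and 1.49 TPM in AP and 4.03 and 3.34 TPM in polyI:C/AP mice. Both polyI:C/AP mice were above the other 4. The difference from AP mice was 1.67 (interval 0.23 to 3.11, adjusted p = 0.288, limma) and from saline mice 1.41 (interval -0.03 to 2.85, adjusted p = 0.11, limma), with neither passing. Only 2.40 to 42.6 estimated reads lay behind these values. A read-through gene, Gm20547, shares 42.8% of the exon bases of C2 on the same strand, and it is not listed.

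Cfb, the catalytic subunit of the alternative convertase, was at 0.119 and 0.875 TPM in saline, 0.324 and 1.79 TPM in AP and 2.51 and 1.26 TPM in polyI:C/AP mice. AP mice overlapped both other groups, and both polyI:C/AP mice lay above both saline mice. Its intervals reached from -1.24 to 2.40, from -1.08 to 2.56 and from -0.50 to 3.14, so that a 4-fold rise lies inside each of them, with only 0.488 to 18.6 estimated reads behind a value. Gm20547 covers 79.5% of its exon bases.

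C3, the protein on which all routes converge, was the most abundant of the 9 at 198 and 146 TPM in saline, 217 and 344 TPM in AP and 321 and 299 TPM in polyI:C/AP mice. Every AP and polyI:C/AP mouse lay above both saline mice, and AP and polyI:C/AP mice overlapped. The difference of AP from saline mice was 0.68 (interval 0.12 to 1.24, adjusted p = 0.0573, limma). After polyI:C it was 0.18 from AP mice (interval -0.37 to 0.74, adjusted p = 0.796, limma) and 0.87 from saline mice, where the adjusted p of 0.0259 passed but the 1.82-fold change did not reach 2-fold. Median-of-ratios scaling brought the differences from saline mice down to 0.25 and 0.41, with adjusted p of 0.444 and 0.226.

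**Figure D3:**
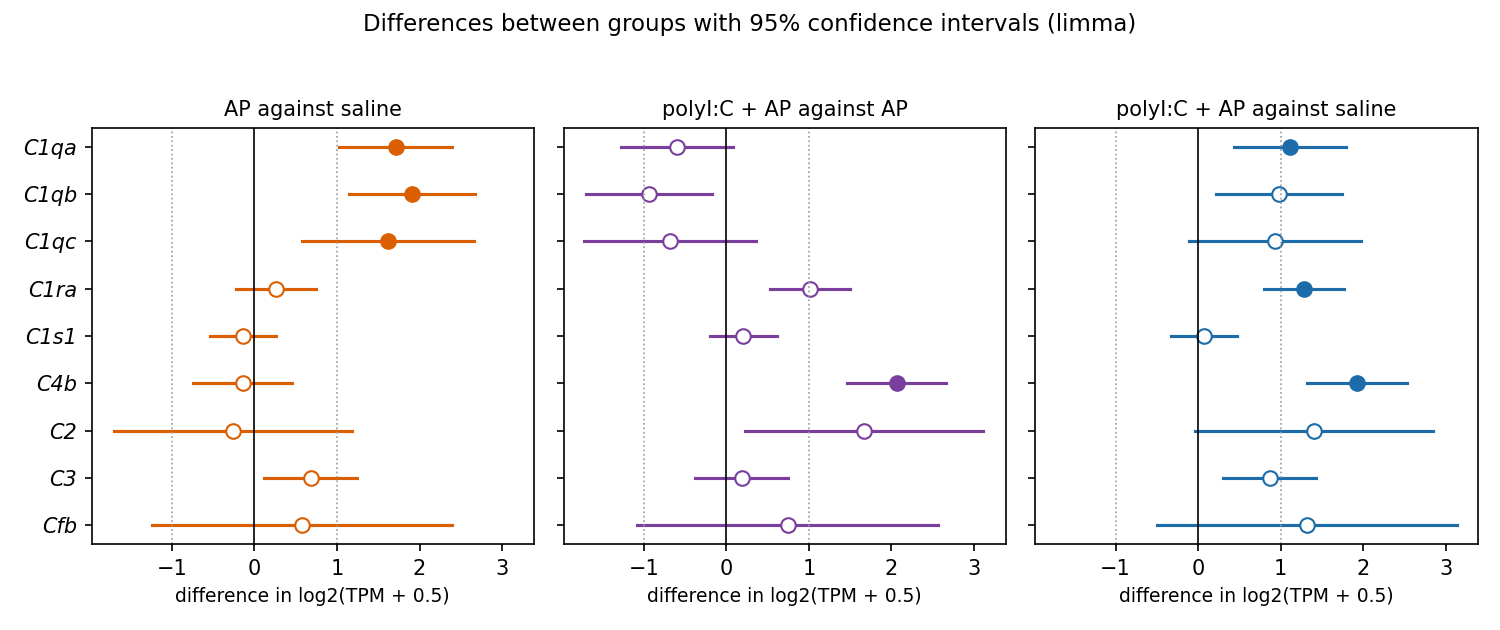
Differences in log2(TPM + 0.5) between groups (x axis) for the 9 complement genes (y axis), with 95% confidence intervals from limma, in the 3 comparisons. Filled circles passed the adjusted p of 0.05 and a 2-fold change (dotted lines); the C1q chains passed in AP mice, C4b after polyI:C relative to AP, and C1qa, C1ra and C4b in polyI:C/AP against saline mice.

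By level, in TPM, which is per transcript length, the order in saline mice was C3, C1qb, C1qa, C4b, C1qc, C1s1, C1ra, C2 and Cfb. C1qb overlapped both C1qa and C4b between mice, C2 overlapped Cfb, and the wide range of C1qc overlapped C4b, C1s1 and C1ra. In AP mice the order was C3, C1qb, C1qa, C1qc, C4b, C1ra, C1s1, Cfb and C2, and the first 3, at 280 ± 89.9, 237 ± 47.9 and 215 ± 70.4 TPM (SD, n = 2), differed by less than their spread, while C1ra overlapped C1s1 and Cfb overlapped C2. In polyI:C/AP mice it was C3, C4b, C1qa, C1qb, C1ra, C1qc, C1s1, C2 and Cfb, with C3 at 310 ± 15.5 TPM above C4b at 151 ± 35.5 TPM, with C1qa overlapping both C4b and C1qb, and with C1ra overlapping C1qc. C3 was 4.13 and 4.63 times C4b in saline, 7.09 and 8.50 times in AP and 2.55 and 1.70 times in polyI:C/AP mice.

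Interferon-induced genes, which polyI:C is known to raise, were read beside C4b and C1ra, and their part in those levels was not tested. Of 14 tested, 11 rose in AP mice, 5 rose further after polyI:C relative to AP, and all 14 were above saline in polyI:C/AP mice, with medians of 1.63, 1.96 and 3.67. Among all tested genes, 18.2%, 0.44% and 16.9% rose in these comparisons. The summed level of the interferon-induced genes was 69.4 and 49.1 TPM in saline, 214 and 317 TPM in AP and 908 and 881 TPM in polyI:C/AP mice. Ifit3 was 2.49 higher on the log2 scale in polyI:C/AP than in AP mice (adjusted p = 0.00576, limma) and Oas1a 2.66 (adjusted p = 0.0161, limma). Rsad2 and Gbp2 were at 0.84 and 1.43 in that comparison and did not pass. Of 8 acute phase and NF-kB genes tested, 7 rose in AP mice, with none of the 8 passing after polyI:C relative to AP. In that comparison 1 rose at an unadjusted p under 0.05 together with 2-fold, by limma. Nfkbia, Tnfaip3 and Icam1 were lower, at -0.93, -0.76 and -0.99, each with an unadjusted p under 0.05 (limma) but short of 2-fold. Hepatocyte genes, 6 in all, summed to 39.0 TPM in polyI:C/AP mouse 1, within the 33.0 to 94.6 TPM of the saline and AP mice. Most of each of these sums was Ttr alone, at 29.6 to 89.9 TPM, while Alb was at 4.69 TPM or less in every mouse. In polyI:C/AP mouse 2 the 6 genes summed to 429 TPM, through Apoa1 and Apob, which enterocytes also express.

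Some genes followed the members most closely over the 6 mice, judged by the root-mean-square difference of centred log2(TPM + 0.5) among tested genes whose mean reached 10 TPM. They were Ddit4 (0.16) and Igfbp4 (0.17) for C1qa, Vim (0.14) and Col5a2 (0.18) for C1qb, and Dusp1 (0.16) and C1qb itself (0.18) for C1qc. C1ra was nearest to Ifi27 (0.15) and Dhx34 (0.15), which an interferon response is known to raise in the case of Ifi27. Serping1, the gene for the C1 inhibitor, was among the 2 nearest for both C2 (0.38) and C4b (0.39), with Cdkl1 (0.38) beside C2 and Ugt2b35 (0.35) beside C4b. C3 was nearest to Hsd11b1 (0.11) and Rad54l2 (0.11), C1s1 to Morc2a (0.04) and Naxe (0.06), and Cfb to Gm11575 (0.18) and Gm22121 (0.28). These are descriptions over 6 mice, and genes with a common group difference are near each other by construction.

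Of 50 other genes of the pathway in 5 lists, 42 are listed in the tables and 31 were tested. Among the regulators, 2 of 11 tested rose and 3 fell in AP mice, beside 18.2% and 4.03% of all tested genes. After polyI:C 1 rose relative to AP, beside 0.44%, and 3 rose and 1 fell against saline, beside 16.9% and 2.97%. The 2 rises in AP mice, of C4bp and Cfi, did not pass under median-of-ratios scaling (adjusted p = 0.0529 and 0.067, limma). Serping1, which inactivates C1r and C1s, was at 32.8 and 19.9 TPM in saline, 26.7 and 30.9 TPM in AP and 74.3 and 65.1 TPM in polyI:C/AP mice. Saline and AP mice overlapped and both polyI:C/AP mice lay above them, as for C4b and C1ra. It rose 2.69-fold against saline mice (adjusted p = 0.00418, limma), or by 0.98 and so short of 2-fold under median-of-ratios scaling, and the difference from AP mice, 1.26, did not pass (adjusted p = 0.0706, limma).

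Cpn1, the subunit of carboxypeptidase N that trims the anaphylatoxins C3a and C5a, went from 83.6 and 60.7 TPM in saline to 20.7 and 19.6 TPM in AP mice. In polyI:C/AP mice it was 41.4 and 41.0 TPM, between the other groups. It fell 3.47-fold in AP mice (adjusted p = 0.000373, limma) and was 2.02-fold higher in polyI:C/AP than in AP mice (adjusted p = 0.0484, limma), or 0.99 higher and so short of 2-fold under median-of-ratios scaling. Vtn, or vitronectin, which blocks the terminal complex, fell by 2.61 in AP mice on the log2 scale (adjusted p = 0.000391, limma) and stayed low after polyI:C, with 27.1 and 40.1 TPM beside 160 and 182 TPM in saline mice. Cd59a, another inhibitor of the terminal complex, fell by 1.11 in AP mice (adjusted p = 0.00714, limma). When single mice were left out its difference ranged from -1.34 to -0.89, the last without saline mouse 2 and short of 2-fold. It did not pass without AP mouse 1 (-1.05) or without AP mouse 2 (-1.18) either. Cr1l, which controls the convertases, was 0.87 higher in AP mice without reaching 2-fold.

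Cfp encodes properdin, which stabilises the alternative convertase and is made by leukocytes. It was at 15.1 and 8.27 TPM in saline, 51.5 and 66.5 TPM in AP and 16.3 and 11.3 TPM in polyI:C/AP mice. Both AP mice were above all the rest, and saline and polyI:C/AP mice overlapped. It rose 5.04-fold in AP mice (adjusted p = 0.00182, limma) and was 4.19-fold lower in polyI:C/AP than in AP mice (adjusted p = 0.0463, limma), where it was the only one of 6 tested initiators of the lectin and alternative pathways to pass. Cfd, the factor D that adipocytes make, varied more within groups than between them, from 38.4 to 217 TPM. Colec12, Fcna and Masp2 differed by -0.67, -1.90 and -0.46 between polyI:C/AP and AP mice, none of them past both limits, and Mbl2 is not listed.

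Of 11 receptors for complement fragments tested, 7 rose in AP mice, none fell and 4 did not pass, with a median of 1.77. Beside them, 18.2% of all tested genes rose, and under median-of-ratios scaling 2 of the 7, Itgax (1.46, adjusted p = 0.0762, limma) and Lrp1 (0.60, adjusted p = 0.185, limma), no longer passed. Itgax did not pass without saline mouse 1 either (1.11, adjusted p = 0.0677, limma). After polyI:C, 2 of the 11 fell relative to AP mice, beside 0.404% of all tested genes. One was C5ar1, the receptor of the anaphylatoxin C5a, at 0.862 and 0.303 TPM in saline, 9.85 and 12.4 TPM in AP and 0.755 and 1.09 TPM in polyI:C/AP mice. It rose 11.1-fold in AP mice (adjusted p = 0.000857, limma) and was 8.19-fold lower after polyI:C (adjusted p = 0.026, limma). The other was Itgam, the alpha chain of complement receptor 3 and a general marker of myeloid cells, which was 5.13-fold lower (adjusted p = 0.0191, limma), with 8.08 and 8.48 TPM in AP and 1.23 and 1.19 TPM in polyI:C/AP mice. Of the more abundant receptors, Itgb2, Cd93 and Lrp1 rose in AP mice by 2.14, 1.94 and 1.02, and their differences of -1.58, -1.10 and -0.78 after polyI:C did not pass. Under median-of-ratios scaling Itgb2 and Cd93 rose by 1.74 and 1.53, and without saline mouse 2 Lrp1 was 0.48 and short of 2-fold. C1qbp and Calr, both able to bind C1q and both present in most cells, did not reach 2-fold in any comparison. Leaving out either AP mouse or polyI:C/AP mouse 2 left no gene of any kind past the test in polyI:C/AP against AP mice, while the differences kept their size, at -2.32 to -1.81 for Cfp, -3.21 to -2.86 for C5ar1, -2.39 to -2.33 for Itgam and 0.97 to 1.05 for Cpn1 when single mice were left out.

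Of the terminal components, which form the membrane attack complex, C7 and C8g were tested and neither passed in any comparison. C7 ranged from 9.85 to 31.1 TPM over the 6 mice. Hc, which encodes C5, was listed at 0 in 4 of the mice and at no more than 0.198 TPM in the other two, C6 had at most 1.42 TPM and C8b 0.938 TPM, and C8a and C9 are not listed.

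**Figure D4:**
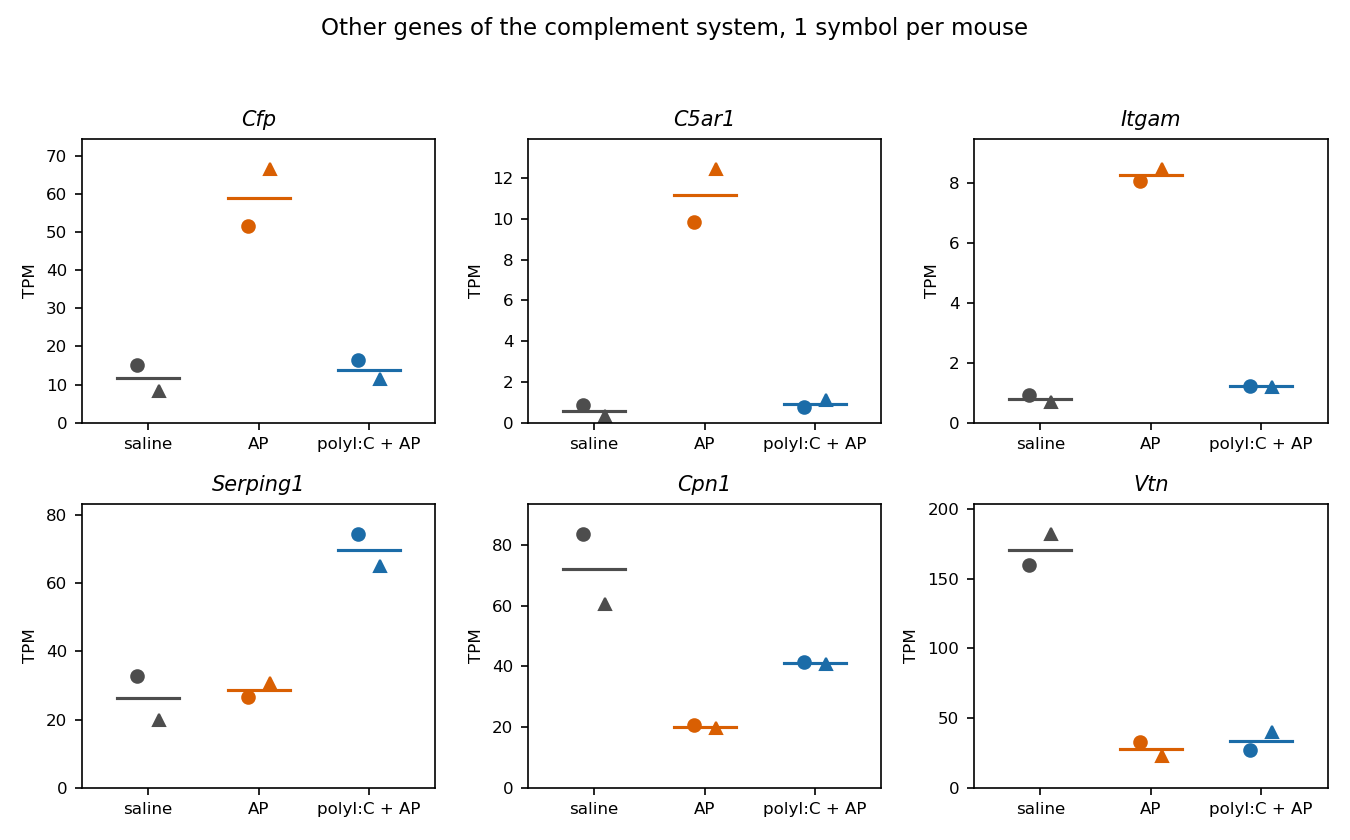
TPM (y axis, linear, from 0) of 6 other complement genes in saline, AP and polyI:C/AP (polyI:C + AP) mice, with circles for replicate 1, triangles for replicate 2 and lines for the mean of 2 mice. Cfp, C5ar1 and Itgam are high in both AP mice and near saline values in the polyI:C/AP mice, Serping1 is highest in the polyI:C/AP mice, Cpn1 lies between saline and AP there, and Vtn is low in all mice given cerulein.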

How the data were processed

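RNA-seq of the pancreas from 2 mice in each of the saline, AP and polyI:C/AP groups was analysed, with groups and replicate numbers taken from the sample labels. The authors deposited TPM per gene and sample. Per the labels and the study's methods, the authors ran Trimmomatic for trimming, STAR for mapping to mm10, HTSeq for counting and DESeq2 for testing; the step from counts to TPM is not given in the sources used here. The labels name a ribosomal depletion kit and the TruSeq Stranded mRNA kit for the same libraries, and the study's methods name the TruSeq kit. DESeq2 needs counts and was not used here.

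TPM values were used as deposited. Differences were fitted with limma 3.58.1 in R 4.3.3 on log2(TPM + 0.5), with 1 coefficient per group, no covariate and all 6 mice sharing the estimate of the spread, for 16814 genes averaging 1 TPM or more. The prior variance followed log2(mean TPM × exon length + 1), p-values were adjusted by Benjamini-Hochberg over all tested genes, and a change passed at an adjusted p of at most 0.05 and at least 2-fold. Folds on this scale understate changes of low genes. The fit was tested on simulated data, with 200 genes changed 4-fold in each comparison. The changed genes were drawn above the levels of C2 and Cfb. All genes had the same dispersion of 0.05, and no overall shift between groups was simulated. The fit recovered 179 of the 200 with 15 false calls in the simulated AP against saline comparison of 16661 genes. It recovered 161 with 1 in polyI:C/AP against AP (16723 genes) and 165 with 16 in polyI:C/AP against saline (16666 genes). Under these settings the numbers are not the power or error rate of the real comparisons.

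Reads per library were estimated from the steps of low TPM values times exon length. Of these values, 51.2% to 62.5% fell within 0.1 of a whole read, against 19.4% to 20.2% with lengths shuffled, so whole reads were not taken as recovered and no count model was run, and the estimated reads served only for voom weights as an alternative. GENCODE M21 holds 22490 of the 22556 identifiers. Shared sequence was counted over stretches of 100 bases of M21 transcripts.

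The 9 genes, the lists and the tests were chosen with earlier results of these data known. Named in the text are all 9 and the 5 genes of highest mean TPM in each other complement list. Also named are complement genes past the threshold in polyI:C/AP against AP mice, and up to 4 genes of highest mean TPM in a marker list. Acinar genes, Csf1r, Cx3cr1, Fcgr1, C4bp, Cfi, Itgax, Tnfaip3, Icam1, Apob, C8a, C9, Mbl2, Ly6g and Mpo were named after their values or absence were seen. Endothelial, duct, fibroblast, neutrophil, adipocyte and lymphocyte lists were also counted. As alternatives, the pseudocount, filter, scaling, prior and thresholds were changed, voom or a replicate block was used, and each mouse was left out.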

Additional observations from a re-analysis of the deposited data

How the results depend on the processing

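With alternatives in turn, C1qa and C1qb kept their rise in AP mice under all but the fit without AP mouse 2, and C4b kept its rise over saline mice under all. The number of the 9 genes that passed in AP against saline mice was 0 to 3 when single mice were left out. In polyI:C/AP against AP mice it was 0 without the filter on low values (adjusted p of C4b 0.0563), 0 with a common prior variance (0.155), 0 with a prior by mean log2 value (0.0875), 2 with voom (C1ra and C4b), 3 at unadjusted p (C1ra, C2 and C4b), and 0 to 1 without single mice. Against saline mice it was 1 under both scalings (C4b), and 1 to 6 without single mice, the 6 without saline mouse 1 (C1qa, C1qb, C1qc, C1ra, C3 and C4b) and the 1 without polyI:C/AP mouse 1 (C4b). A mouse left alone in its group was assumed to vary like the others.

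Signs turned only where differences had not passed. Under median-of-ratios and trimmed-mean scaling C1ra was -0.16 and -0.13 in AP against saline mice and C1s1 -0.38 and -0.35 in polyI:C/AP against saline mice. Without single mice the AP against saline differences ranged from -0.88 to 0.36 for C2, from -0.44 to 0.15 for C4b and from -0.16 to 1.31 for Cfb, that of C3 in polyI:C/AP against AP mice from -0.15 to 0.52, and that of C1s1 in polyI:C/AP against saline mice from -0.030 to 0.17. The cause was not tested.

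With the replicate number as a block, 3, 1 and 3 of the 9 genes passed, with C4b at 2.07 against AP mice, and no call on the 9 changed. The numbers did not pair the mice: deviations of same-numbered mice correlated at 0.0075, -0.0039 and 0.035. Precision is limited by 2 mice a group and, for C2 and Cfb, by few reads.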

Other observations

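Markers of the other cell types a pancreas can hold gave the surroundings of the complement genes. Among all tested genes, 18.2% rose and 4.03% fell in AP against saline mice. In polyI:C/AP against AP mice 0.44% rose and 0.404% fell. Of 8 duct cell genes tested, 6 rose in AP mice with a median of 2.17. None passed after polyI:C relative to AP, 0 also at an unadjusted p under 0.05 together with 2-fold. Krt19 differed by -0.42 there (unadjusted p = 0.00742, limma), short of 2-fold. The summed level of the duct list was 322 and 279 TPM in saline, 4392 and 4908 TPM in AP and 4049 and 4163 TPM in polyI:C/AP mice. Both groups given cerulein thus stood apart from saline mice. Of 10 fibroblast and stellate cell genes, 4 rose in AP mice, among them Col3a1, a fibrillar collagen, and none passed after polyI:C (1 fell at an unadjusted p under 0.05). None of 8 endothelial genes passed in any comparison by limma, and 0 reached 2-fold at an unadjusted p under 0.05, with differences from -0.31 to 0.95. Of 10 neutrophil genes looked for, only 5 were tested, and the defining markers Ly6g and Mpo are not listed. Among the 5 tested neutrophil genes, 2 rose in AP mice (S100a9 and Retnlg, leukocyte granule and cytosol proteins), and none passed after polyI:C (2 fell at an unadjusted p under 0.05, by limma). None of 4 tested adipocyte genes and none of 3 tested lymphocyte genes passed in any comparison, also 0 of each at an unadjusted p under 0.05 and 2-fold by limma.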
